A study of Mus musculus with 12 samples.

Results

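The genes described here act inside the Wnt-receiving cell or report on it. They are the negative feedback targets Axin2, Nkd1 and Nkd2, the DNA-binding factors Lef1, Tcf7, Tcf7l1 and Tcf7l2, and Apc2, Dvl2 and Vangl1, which work in the cytoplasm or at the membrane. They were chosen by name, with earlier results of these data known. A probe was taken where the accession on the array belonged to one of the 10 genes. This gave 17 of the 39429 probes and 10 of the 20144 genes that could be named. Their RNA was measured in mouse osteosarcoma cells on 12 single-colour Agilent arrays. Dunn cells are the parental line with low metastatic activity, and LM8 is a line derived from Dunn cells with higher metastatic activity. Dunn cells were taken at passage 25 (Dunn_25) and at passage 86 (Dunn_86) and LM8 cells at passage 24 (LM8_24) and at passage 91 (LM8_91), with 3 cultures each, called early and late below. The cells received no treatment, and all grew in the same medium with 10% fetal calf serum. Each group is 1 line with 1 history of passaging, so the error below is that between cultures and not between independent selections of a metastatic line. The labels call both lines osteoblastic, and name them human in 1 field although the organism and the array are mouse. Of 9 osteoblast markers measured, 8 were well above background on every array that gave them a value. Some of these had no value on some arrays, because outlier spots were left out. No epithelial or endothelial marker was well above background on every array with a value.

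In canonical Wnt signalling a ligand bound to a Frizzled receptor and an Lrp co-receptor recruits Dishevelled proteins, and the complex of Axin, Apc and kinases that degrades β-catenin is inhibited. β-catenin then enters the nucleus and binds factors of the TCF/LEF family, which turns on target genes. Axin2 and Nkd1 are among the most general of these targets and dampen the signal that induced them, and Lef1 is both a target and a partner of β-catenin. In bone the pathway promotes the commitment and the activity of osteoblasts.

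TCF and LEF proteins bind short DNA motifs with the core CTTTG, read as CAAAG on the opposite strand. The 250 bases in front of the outermost annotated transcription start (RefSeq, GRCm38.p6) are printed for Lef1, Apc2 and Dvl2, the members called different between LM8 and Dunn cells for which such a window was at hand. They read 5′ to 3′, with the motif on either strand in capitals:

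Lef1 (chr3:131110047-131110296, + strand): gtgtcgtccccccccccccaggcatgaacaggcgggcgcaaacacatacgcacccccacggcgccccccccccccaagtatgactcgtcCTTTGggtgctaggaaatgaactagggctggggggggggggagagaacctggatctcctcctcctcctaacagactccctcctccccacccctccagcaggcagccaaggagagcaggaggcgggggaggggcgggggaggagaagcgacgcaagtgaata

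Apc2 (chr10:80295706-80295955, + strand): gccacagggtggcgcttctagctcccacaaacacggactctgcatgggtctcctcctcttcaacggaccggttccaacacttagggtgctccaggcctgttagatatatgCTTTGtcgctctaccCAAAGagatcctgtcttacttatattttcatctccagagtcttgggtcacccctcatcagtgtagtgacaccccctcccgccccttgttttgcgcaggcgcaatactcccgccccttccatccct

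Dvl2 (chr11:70000342-70000591, + strand): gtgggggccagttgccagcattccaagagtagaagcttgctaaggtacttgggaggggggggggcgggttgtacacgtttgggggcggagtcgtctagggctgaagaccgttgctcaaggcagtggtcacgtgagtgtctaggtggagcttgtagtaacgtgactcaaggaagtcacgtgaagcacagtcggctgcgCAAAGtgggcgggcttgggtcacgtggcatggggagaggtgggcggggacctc

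The Lef1 window held CTTTG once, 161 bases before the start. The Apc2 window held both forms, 140 and 125 bases before the start, and the Dvl2 window held CAAAG 53 bases before it. The motif is short, and 48.6% of all 32851 windows of this length held it. Of the 17 windows of the members, 10 held it. Of the 9 members with a window, 5 had the motif in at least 1 of their windows. A window at the outermost start was at hand for 5 members, of which 4 had the motif in it and Nkd2 did not. A match is a description of the letters and not a binding site. Windows that lie inside the gene, as those of Axin2, Nkd1 and Tcf7 do, are not printed.

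LM8 and Dunn cells were compared first, with the passages pooled (6 arrays each) and then for each pair of passages. Values are log2 signals relative to the 75th percentile of the array, and a member was called at an adjusted p under 0.05 (limma, over all probes) and a difference of more than 2-fold in its brightest probe. In the pooled comparison Tcf7, Apc2, Dvl2 and Vangl1 were higher in LM8 cells, which is 4 of 10 members where 4.28% of all genes were called higher. Lef1 was the only member called lower, where 27.1% of all genes were. On this scale the median difference of all genes was -0.66, against 0.77 for the members. The median of genes was -0.26 where the probe was well above background on all arrays of a group. With quantile normalization it was -0.17, so the value of -0.66 moves with dim probes and with the scaling. The study had itself named Tcf7, Nkd2 and Dvl2 as higher in LM8 cells from these arrays, so their direction is not independent evidence. All members were chosen with earlier results of these arrays known. The share of members called and their median are therefore not independent evidence either.

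**Figure D1:**
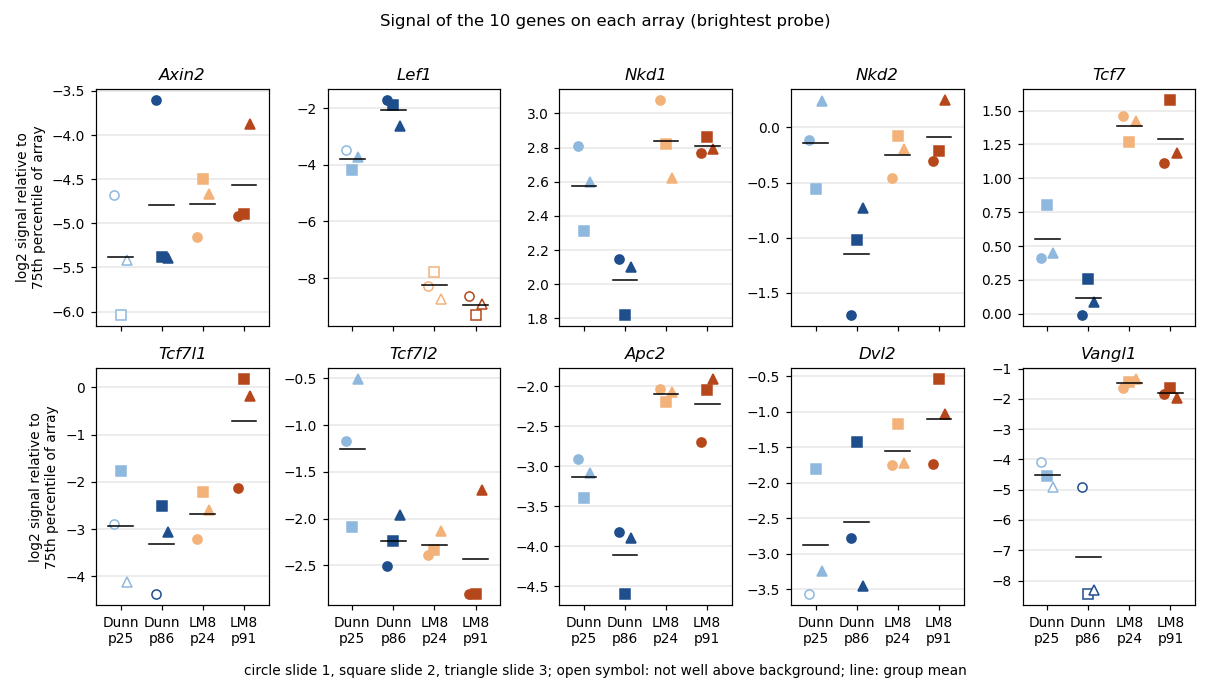
Log2 signal of each member's brightest probe relative to the 75th percentile of the array (y axis, scaled separately in each panel) for the 4 groups (x axis, line and passage), with 1 point per array, the slide as the symbol, open symbols for signals not well above background and the group mean as a line. The LM8 values of Lef1 lie between -9.31 and -7.77 and are all open, while its Dunn values lie between -4.18 and -1.70.

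Of the feedback targets, Axin2, a scaffold of the β-catenin destruction complex, was close to background in both lines. Its signal was -4.68, -6.04 and -5.42 in early Dunn, -3.60, -5.38 and -5.39 in late Dunn, -5.16, -4.50 and -4.67 in early LM8 and -4.92, -4.90 and -3.87 in late LM8 cells. The lines overlapped, and the probe was well above background on all 6 LM8 arrays, on the 3 late Dunn arrays and on 0 of the 3 early Dunn arrays. The difference between LM8 and Dunn was 0.41 ± 0.38 (SE, n = 6 and 6, limma adjusted p = 0.369). The difference was -0.90 on slide 1 and 1.01 and 1.14 on slides 2 and 3. Slide 1 is also where both Dunn arrays had the higher floor of dim signals, with a lowest signal of 6.24 and 7.28 intensity units against 1.90 to 3.33 on the other arrays. Without slide 1 the difference was 1.07 ± 0.30 (adjusted p = 0.0678), with quantile normalization it was 0.93 (adjusted p = 0.0107), and it turned to -0.85 with the normexp background correction. The second Axin2 probe was well above background on 1 array only and gave -1.30 (adjusted p = 0.0924).

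Nkd1, which binds Dishevelled and inhibits the canonical branch, was well above background on every array. Its signal was 2.81, 2.31 and 2.60 in early Dunn, 2.15, 1.82 and 2.10 in late Dunn, 3.08, 2.82 and 2.62 in early LM8 and 2.77, 2.86 and 2.79 in late LM8 cells. The LM8 values overlapped with those of early Dunn cells and lay above all those of late Dunn cells. The pooled difference was 0.53 ± 0.20, or 1.44-fold, which passed the p threshold (limma adjusted p = 0.0485) but not that of 2-fold, and lost it without slide 1 (adjusted p = 0.123). The second Nkd1 probe, which is dimmer, gave 0.15 ± 0.42.

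Nkd2, its paralogue, gave different answers with its probes. The brightest probe had pooled means of -0.17 ± 0.24 in LM8 and -0.65 ± 0.68 in Dunn cells (SD, n = 6), which overlapped (difference 0.48, limma adjusted p = 0.194). The second probe ranged from -1.43 to -1.07 in LM8 and from -4.63 to -1.94 in Dunn cells without overlap, a difference of 2.01 ± 0.45 or 4.03-fold (adjusted p = 0.0112). It was also called against late Dunn cells, with 3.06 for early and 2.94 for late LM8 cells. Whether the probes detect different transcripts was not tested.

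Lef1 was lower in LM8 cells, with the largest difference of all members. This factor brings β-catenin to DNA. Its signal was -3.49, -4.18 and -3.71 in early Dunn and -1.70, -1.88 and -2.64 in late Dunn cells. It was -8.27, -7.77 and -8.75 in early LM8 and -8.65, -9.31 and -8.92 in late LM8 cells. The lines were separated by more than 3 log2 units, and the probe was well above background on 5 of 6 Dunn and on 0 of 6 LM8 arrays. The measured difference was -5.68 ± 0.45 (limma adjusted p = 6.22e-06). Since LM8 cells only have an upper bound, Lef1 was at least 13.4-fold lower in them than in Dunn cells on the reported scale. The bound is particular to that scale: the alternatives that left out no single array gave differences of -5.68 to -2.46. In unscaled intensity units the LM8 arrays read 2.81 to 6.03, at the floor, and the Dunn arrays 21.9 to 260.

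Lef1 was lower in each pair of passages as well, with bounds again on the reported scale. It was at least 6.57-fold lower in early LM8 against early Dunn (adjusted p = 0.00289) and at least 27.3-fold in late LM8 against late Dunn cells (adjusted p = 0.00131). It was at least 21.6-fold lower in early LM8 than in late Dunn cells (adjusted p = 0.00292) and at least 8.31-fold lower in late LM8 than in early Dunn cells (adjusted p = 0.000656). Over the 5 comparisons and their alternatives Lef1 was called in 87 of 91 fits. In 2 of the other 4 its probe did not pass the filter on dim probes, and the others were the normexp correction at early passage and the replicate block between early LM8 and late Dunn cells (adjusted p = 0.06).

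None of the other TCF factors was called lower in the comparisons as reported. Tcf7, a factor first known from T cells, was 0.41, 0.80 and 0.45 in early Dunn, -0.01, 0.26 and 0.09 in late Dunn, 1.46, 1.27 and 1.42 in early LM8 and 1.11, 1.58 and 1.19 in late LM8 cells. Every LM8 value was above every Dunn value. The difference was 1.0 ± 0.19, or 2.01-fold (limma adjusted p = 0.00391), which is at the edge of the 2-fold threshold: leaving out single arrays gave 0.94 to 1.10. The call held in 14 of 23 alternatives and was lost, among others, without slide 1 (0.97, adjusted p = 0.0532), and the second probe gave 0.96 ± 0.22 (adjusted p = 0.0112). Against late Dunn cells alone, Tcf7 differed by 1.27 in early and by 1.18 in late LM8 cells, with limma adjusted p of 0.0588 and 0.0741.

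Tcf7l1, which mostly represses targets in the absence of β-catenin, varied strongly between cultures. It was -2.90, -1.78 and -4.11 in early Dunn, -4.38, -2.51 and -3.06 in late Dunn, -3.20, -2.21 and -2.60 in early LM8 and -2.14, 0.17 and -0.18 in late LM8 cells. Late LM8 cells were above all late Dunn and early LM8 cultures, and they overlapped with early Dunn cells. The pooled difference of 1.43 ± 0.63 did not pass (limma adjusted p = 0.0807). Late LM8 against late Dunn cells gave 2.60 ± 0.80 (adjusted p = 0.177), and 2.78 ± 0.31 without slide 1 (adjusted p = 0.00898).

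Tcf7l2, the TCF factor that acts in many epithelia and in the liver, was the one other member with a value below 0, -0.61 ± 0.35 (limma adjusted p = 0.155). The median was -0.66 over all genes and -0.26 over genes whose probe was well above background on all arrays of a group. Its LM8 values ranged from -2.81 to -1.69 and its Dunn values from -2.51 to -0.51. The sign turned to 0.55 in the deposited values without scaling. Late LM8 against early Dunn cells called it lower in 4 of 17 alternatives, with the replicate block (-1.18, adjusted p = 0.0374), array quality weights, the normexp correction and without the early Dunn array of slide 2. Early LM8 against early Dunn cells called it lower in 2, with the weights and without that array. The second probe gave -0.32 ± 0.24 (adjusted p = 0.264), and the third was mostly at background.

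Apc2, a relative of the tumour suppressor Apc that can also promote β-catenin degradation, was higher in LM8 cells. It was -2.91, -3.39 and -3.08 in early Dunn, -3.82, -4.60 and -3.89 in late Dunn, -2.03, -2.19 and -2.07 in early LM8 and -2.70, -2.05 and -1.91 in late LM8 cells. No LM8 value overlapped with a Dunn value. The difference was 1.46 ± 0.29, or 2.74-fold (limma adjusted p = 0.00559), and 0.36 with the normexp correction (adjusted p = 0.354). Of the pairs of passages, early LM8 against late Dunn cells was called (2.0 ± 0.29, adjusted p = 0.0364), a call that the replicate block lost (adjusted p = 0.165).

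Dvl2, a Dishevelled protein that relays the signal from Frizzled, was -3.57, -1.80 and -3.24 in early Dunn, -2.77, -1.43 and -3.45 in late Dunn, -1.75, -1.17 and -1.72 in early LM8 and -1.74, -0.54 and -1.03 in late LM8 cells. The slide 2 Dunn arrays reached into the LM8 range. The difference was 1.39 ± 0.40, or 2.61-fold (limma adjusted p = 0.0289). On each slide LM8 was higher, by 1.42, 0.76 and 1.97, and the call was lost in 7 of 23 alternatives. These were the normexp correction (0.47, adjusted p = 0.171), array quality weights, leaving out slide 1 (1.37, adjusted p = 0.101), and leaving out singly the early Dunn array of slide 1 (1.21, adjusted p = 0.0507) or of slide 3 or the late LM8 array of slide 2 or of slide 3.

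Vangl1, a membrane protein of the planar cell polarity branch, had the largest rise of the members. It was -4.09, -4.56 and -4.91 in early Dunn, -4.91, -8.46 and -8.31 in late Dunn, -1.64, -1.43 and -1.35 in early LM8 and -1.85, -1.63 and -1.96 in late LM8 cells. The lines did not overlap, and the probe was well above background on all 6 LM8 arrays and on 1 Dunn array. The measured difference was 4.23 ± 0.74 (limma adjusted p = 0.00294). The second probe was above background on 6 LM8 and 0 Dunn arrays. With it Vangl1 was at least 3.84-fold higher in LM8 cells on the reported scale (adjusted p = 0.000481). The pooled call of the brightest probe held under all 23 alternatives, with a difference of 1.24 to 5.40 over the 11 that did not leave out a single array.

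Split by passage, 1 member was called higher in early LM8 against early Dunn cells, Vangl1 (3.05, limma adjusted p = 0.00639, and 0.0558 with the replicate block), where 1.33% of all genes were, and 1 lower, Lef1, where 3.22% were. In early LM8 against late Dunn cells 1 member was called higher, Apc2, against 1.14% of all genes, and Lef1 lower against 1.78%. In late LM8 against early Dunn cells Vangl1 (2.71) and Dvl2 (1.77) were called higher, where 5.28% of all genes were, and Lef1 lower, where 39.2% were. In late LM8 against late Dunn cells no member was called higher by its brightest probe (1.25% of all genes) and Lef1 was called lower (2.59%). Against late Dunn cells the brightest Vangl1 probe differed by 5.75 in early and 5.41 in late LM8 cells, without overlap. Neither was called (limma adjusted p = 0.0657 and 0.0622), though each was in 10 of 17 alternatives. The second Vangl1 probe was called in both, with 4.67 and 4.6 (adjusted p = 0.0242 and 0.0221). Both probes were well above background on 0 of 3 late Dunn arrays, so the sizes rest on dim Dunn signals. In late LM8 against late Dunn cells, tested with limma, 6 members differed by more than 2-fold at an unadjusted p under 0.05. Over all genes 2685 of 20143 did. These comparisons share arrays, so they are not independent of each other or of the pooled one.

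**Figure D2:**
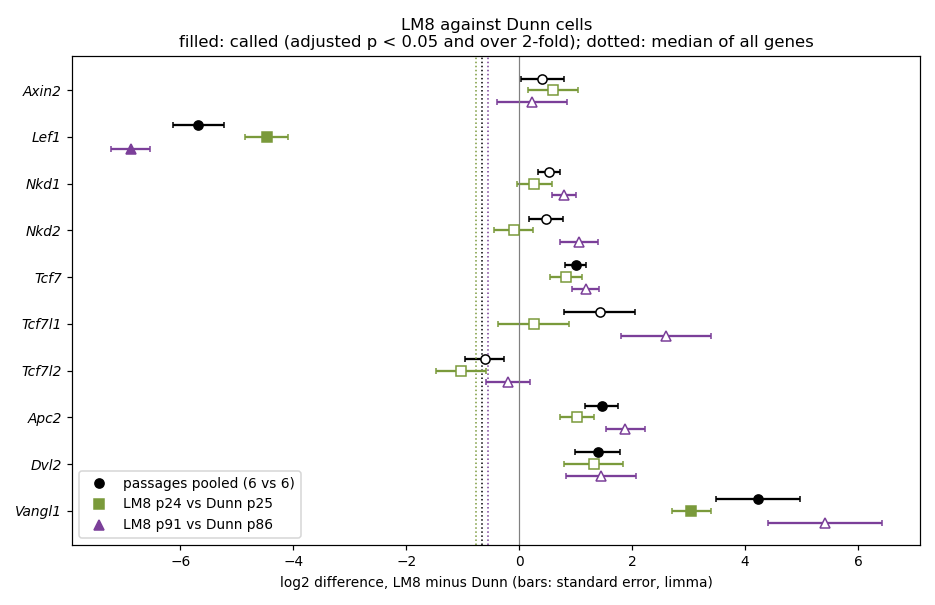
Log2 difference of LM8 minus Dunn (x axis) with its standard error for the 10 members, for the pooled passages and for early and late passage, with filled symbols for called differences and dotted lines at the median of all genes. Lef1 lies at -4.47 to -6.88, Vangl1 at 3.05 to 5.41, and the other members lie between -1.03 and 2.60.

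Passage was compared next within each line. In Dunn cells no member was called between passage 86 and passage 25, where 0.00497% of all genes were, and in LM8 cells none was called between passage 91 and passage 24, where 2.82% were. The medians of the members were -0.50 in Dunn and -0.06 in LM8 cells, beside -0.34 and -0.18 for all genes. At an unadjusted p under 0.05 (limma) and over 2-fold, 2 members passed in Dunn cells, Lef1 and Vangl1, beside 978 of 20123 genes. In LM8 cells 1 member passed, Tcf7l1, beside 1468 of 20144 genes. The methods' t-test called 0 members in each line.

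Lef1 was higher in each late than in each early Dunn culture, by 1.72 ± 0.40 or 3.29-fold, with a limma adjusted p of 0.555 over all probes. In LM8 cells it was at background in both passages. Vangl1 had a lower mean in late than in early Dunn cells (-2.71 ± 1.03, adjusted p = 0.782). Its probe was well above background on 1 of 3 early and 0 of 3 late Dunn arrays, so the size is that of dim signals and no direction is drawn from it. The measured differences were -0.82 on slide 1, where the Dunn floor was higher, and -3.90 and -3.40 on slides 2 and 3, and -3.65 without slide 1 (adjusted p = 0.0257). Tcf7l1 was higher in each late than in each early LM8 culture, by 1.96 ± 0.62 or 3.88-fold (adjusted p = 0.235), and by 2.67 when the late LM8 array of slide 1 was left out (adjusted p = 0.0295).

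Some members with smaller differences, none of them called, had the same sign on all slides of Dunn cells. Nkd1, Nkd2, Tcf7, Tcf7l2 and Apc2 had a negative difference on each slide, with means of -0.55, -1.0, -0.44, -0.98 and -0.98 and adjusted p of 0.782 each. In LM8 cells the same genes lay between -0.15 and 0.16. The median of all genes in Dunn passage was -0.34, and the 75th percentile was higher in the late Dunn array of each slide. Without scaling Nkd1 (0.42) and Tcf7 (0.53) turned. Over the alternatives that left out no single array, Nkd2, Tcf7l2 and Apc2 reached -0.04, -0.02 and -0.01. The shared sign therefore depends on the scaling. The test of the difference between the lines in the effect of passage called no member, where 0.606% of all genes passed. The members with an unadjusted p under 0.05 were 2, Lef1 (-2.42 ± 0.51, limma adjusted p = 0.108) and Nkd2 (1.16 ± 0.45, adjusted p = 0.731). Over all genes 1381 of 20130 had such a p. Among the other probes it was found for the second of Nkd2 (1.86 ± 0.43, limma adjusted p = 0.156) and of Vangl1 (1.74 ± 0.72). The third probe of Tcf7l2 had it as well (2.36 ± 1.04). The Vangl1 and Tcf7l2 probes were dim in Dunn cells. The value of Lef1 includes LM8 signals at background, so it measures no difference between the lines.

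**Figure D3:**
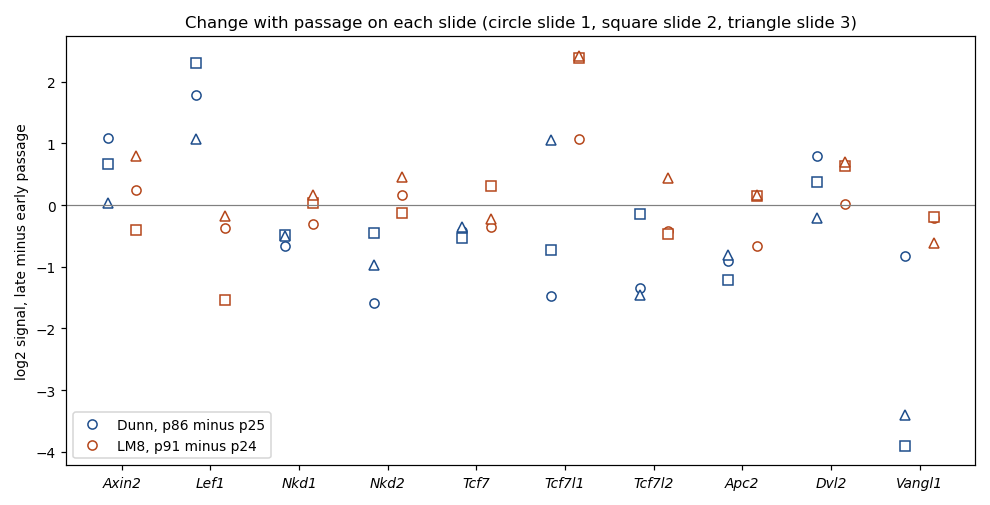
Log2 difference of late minus early passage (y axis) for each member (x axis) on each of the 3 slides, for Dunn and LM8 cells. For Lef1 the Dunn points lie at 1.07 to 2.30 and the LM8 points, which come from signals at background, at -1.54 to -0.17.

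The target readouts Axin2, Nkd1 and Lef1 were then set beside the ligands. Of the 19 Wnt genes, 4 were called higher in LM8 than in Dunn cells with passages pooled, where 4.28% of all genes were. These were Wnt8b (2.54 ± 0.52), Wnt1 (2.13 ± 0.19, limma adjusted p = 1.67e-05), Wnt11 (1.76 ± 0.43) and Wnt10b (1.30 ± 0.29), and each was well above background on all LM8 arrays. Another 9 were called lower, where 27.1% of all genes were, but 7 of them were well above background on no array, so those differences are between dim signals. Of the detected ligands Wnt4, which often acts outside the β-catenin branch, was lower, with -1.21 ± 0.22 (adjusted p = 0.00358). The median over the ligands was -1.21, against -0.66 for all genes.

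Wnt1 and Wnt10b are classical activators of β-catenin. Wnt1 ranged from -0.80 to -0.35 in LM8 and from -3.0 to -2.24 in Dunn cells, a rise of 4.39-fold without overlap. Beside this, Axin2 differed by 0.41, Nkd1 by 0.53 and Lef1 by -5.68. By its brightest probe none of these 3 genes was called higher together with the ligands: Axin2 and Nkd1 were not called, which does not show that they were equal, and Lef1 was called lower. Nkd2, the other feedback target, was not called by its brightest probe but was by its second probe and with the mean over probes (1.25, limma adjusted p = 0.0213). Axin2 was called in 1 of the 23 alternatives of the pooled comparison and Nkd1 in 1, in both cases the deposited values without scaling, in which the median of all genes was 0.50. Against early Dunn cells, where its probe was above background on 0 of 3 arrays, Axin2 was called higher in both early and late LM8 cells in 2 of 17 alternatives each, with quantile normalization and without scaling.

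**Figure D4:**
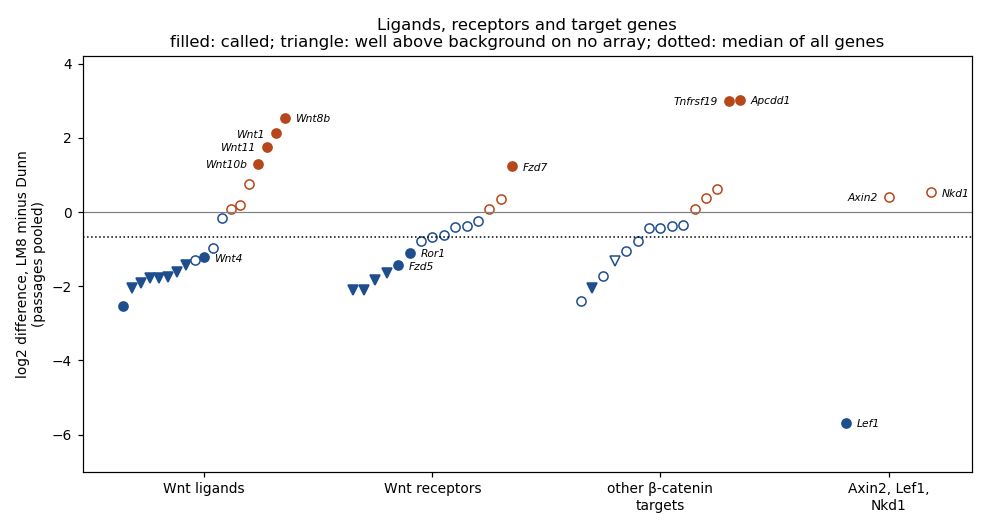
Log2 difference of LM8 minus Dunn with passages pooled (y axis) for 19 Wnt ligands, 15 receptors, 15 other β-catenin targets and the 3 target readouts Axin2, Lef1 and Nkd1, with filled symbols for called genes, triangles for genes well above background on no array and the dotted line at the median of all genes (-0.66). The called ligands above 0 are Wnt8b, Wnt1, Wnt11 and Wnt10b, while Lef1 lies at -5.68.

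Across the 12 arrays the ligand or receptor most like Axin2 was Wnt7b (Pearson r = 0.55), followed by Wnt11 (0.52) and Wnt10a (0.34). For Nkd1 these were Wnt8b (0.84), Wnt1 (0.75) and Wnt5b (0.72), and for Lef1 they were Fzd2, Ror1 and Wnt4 (0.79 each). The arrays fall into 2 clusters by line, and for the pairs compared within the lines the likeness differed in size or sign. Over the 6 Dunn and the 6 LM8 arrays, Axin2 and Wnt7b gave 0.90 and -0.60, Nkd1 and Wnt8b 0.83 and -0.56, and Lef1 and Wnt4 -0.67 and -0.82. Positive in both lines were Nkd1 with Wnt1 (0.18 and 0.60) and with Wnt5b (0.51 and 0.36), and Lef1 with Fzd2 (0.46 and 0.74). Axin2 gave 0.77 and -0.09 with Wnt11 and 0.34 and -0.01 with Wnt10a, and Lef1 with Ror1 gave 0 and -0.04. The LM8 values of Lef1 rest on signals at background. Over all genes the closest to Axin2 was Crygc (0.92), to Nkd1 Pax6 (0.95) and to Lef1 Lgi4 (1.0 after rounding, with 0.99 over the Dunn and 0.93 over the LM8 arrays, where Lef1 was at background). All of these are correlations over few arrays, out of 11293 candidate genes, and are given as a description.

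Other components were read against the same shares, 4.28% of all genes higher and 27.1% lower. Of 15 receptors, Fzd7 was higher (1.23 ± 0.20, limma adjusted p = 0.0021) and 6 were lower, of which 4 were above background on no array; Fzd5 was lower with signal on all arrays (-1.43 ± 0.34). Of 17 other cytoplasmic components, Tnks, a tankyrase that promotes the degradation of Axin, was lower (-1.04 ± 0.26, adjusted p = 0.0175) and none was higher. Of 14 nuclear cofactors, Pygo2, a β-catenin coactivator, was higher (1.47 ± 0.29, adjusted p = 0.00685) and Tle3, a corepressor that binds TCF factors, was lower (-1.47 ± 0.20, adjusted p = 0.000525). Of 12 other planar polarity genes none was higher and Celsr1 and Prickle2 were lower, both between dim signals, with Celsr1 well above background on 3 Dunn and 3 LM8 arrays and Prickle2 on 1 and 0.

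Of 15 other genes described as β-catenin targets, 2 were higher in LM8 cells and 1, Bambi, was lower at background level. Apcdd1, an inhibitor that binds Wnt and Lrp5, was higher by 3.03 ± 0.55 or 8.19-fold (limma adjusted p = 0.00357). Tnfrsf19, a receptor of the TNF family, was higher by 3.0 ± 0.22 or 8.02-fold (adjusted p = 4.28e-06). Both were well above background on all 12 arrays and did not overlap between the lines, with Apcdd1 at 0.59 to 3.12 in LM8 and -2.37 to -0.44 in Dunn cells and Tnfrsf19 at 0.39 to 0.67 and -3.25 to -2.0. The median of the 15 targets was -0.42, against -0.66 for all genes. Apcdd1 also rose with passage, by 2.09 ± 0.22 in LM8 (called, adjusted p = 0.00591) and by 1.47 ± 0.35 in Dunn cells (adjusted p = 0.58). Early LM8 against late Dunn cells gave 1.25 ± 0.23 for it and was not called (adjusted p = 0.077). Rnf43 was called lower with passage in LM8 cells (-2.46 ± 0.18, adjusted p = 0.00136), where 2.82% of all genes were called.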

How the data were processed

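Cells were thawed, grown for 3 further passages and their RNA was labelled with Cy3 and hybridised to mouse 4 x 44K arrays. Per the file headers, the authors deposited Agilent Feature Extraction 10.7.3 output, whose processed signal is an intensity in linear units after background subtraction and detrending, not scaled between arrays. The table of all arrays held the same intensity values (largest difference 0.497%).

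Here log2 of the intensity minus the 75th percentile of each array was used, outlier spots were left out and spots of 1 probe were averaged. Of 39429 probes, 26581 were named through RefSeq accessions (GRCm38.p6). The brightest probe stood for a gene. Array depth has no count; 12 arrays limit the precision, and the share of probes well above background was 39.1 to 59.7%. A signal below background on all arrays of a group gave a bound against the lowest signal well above background.

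Groups were tested with limma 3.58.1 (lmFit and eBayes, R 4.3.3) on the arrays compared, with Benjamini-Hochberg adjustment over all probes, and called at an adjusted p under 0.05 and over 2-fold (for the interaction, the p alone). The code was tested on simulated data. Figures were drawn with matplotlib. The members and lists were chosen with earlier results of these data known. Named genes were all members and, from each list, up to 4 called genes with the largest pooled difference and signal on all arrays of the higher line. The nearest genes by correlation were added. Wnt4, Celsr1, Prickle2, Bambi and Rnf43 were named after their values were seen. Marker lists were osteoblast (Alpl higher in LM8, 2.04-fold), leukocyte (Csf1r well above background on all arrays, Lyz2 lower), epithelial (Cdh1 and Krt8 lower, both at background) and endothelial (none called).

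Replicate numbers mark the slide, which holds 1 array of each group, so slide was tried as a replicate block. Position on the slide and group cannot be told apart. Alternatives were quantile normalization, normexp (offset 50, on median signals, since mean signals were not used here), no scaling, a floor, a filter on dim probes, the mean over probes, 1 fit for all arrays, array weights, the block, the methods' t-test, leaving out each array, and, chosen after seeing the data, leaving out slide 1.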

Additional observations from a re-analysis of the deposited data

Results flagged for a closer look

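The late minus early values of Lef1 were above 0 on all 3 slides in Dunn cells (1.79, 2.30 and 1.07) and below 0 on all 3 in LM8 cells (-0.38, -1.54 and -0.17). All LM8 signals were at background, so no direction can be read in that line. The difference between the lines was tested and was -2.42 ± 0.51 on the log2 scale (limma adjusted p = 0.108 over all probes), which did not pass. The LM8 part of that value comes from the same background signals, so it measures no difference between the lines under any of the alternatives.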

How the results depend on the processing

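Lef1 was lower in LM8 cells under all alternatives tried in the pooled comparison (-5.92 to -5.43 with single arrays left out, -5.68 to -2.46 in the others), and Vangl1 was higher. The number of members called moved with the scaling, the background correction and the arrays used; the cause was not tested except where fewer arrays or probes entered. The median of all genes in the pooled comparison was -0.66 as reported, -0.17 with quantile normalization, -0.89 with normexp and 0.50 in the deposited values without scaling. The signs in the text are about 0 on the reported scale. Calls over all genes ranged from 1487 without slide 1 to 9949 with normexp, against 6321 as reported. Higher in LM8 cells were 509 of the 1487, 461 of the 9949 and 862 of the 6321. Without scaling 4115 of 4395 were higher.

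Pooled, 5 members were called as reported, 3 with normexp, with array weights and without slide 1 (chosen after seeing the data), 9 without scaling, and 3 to 5 with single arrays left out, 3 without the late LM8 array of slide 2. For early LM8 against early Dunn cells the 2 calls became 0 with normexp, 7 without scaling, 4 with array weights, 1 with the replicate block (Lef1) and 1 to 4 without single arrays. For early LM8 against late Dunn cells the 2 calls became 4 with the filter on dim probes, 5 with the mean over probes, 4 with 1 fit for all arrays, 4 with array weights, 0 with the replicate block and 1 to 4 without single arrays. For late LM8 against early Dunn cells the 3 calls became 9 without scaling, 5 with array weights, 5 with the replicate block and 2 to 5 without single arrays. For late LM8 against late Dunn cells the 1 call became 3 with quantile normalization, normexp or no scaling, 2 with the floor or the methods' t-test, 4 with the filter, with 1 fit or without slide 1, 5 with the mean over probes or array weights, and 1 to 4 without single arrays, 4 without the late Dunn array of slide 1. The passage effect in Dunn cells gained 1 call, Vangl1, with quantile normalization and without slide 1, and 0 to 0 without single arrays; that in LM8 cells gained 0 to 1, Tcf7l1, without single arrays. The interaction gained 1 call with quantile normalization (Vangl1), with the filter (Lef1, whose LM8 signals were at background) and without slide 1 (Vangl1), 2 with array weights, and 0 to 1 without single arrays. Where 1 array was left out of 6, limma's pooled spread was used. The replicate block, with the slide as its number, changed no other count. Of 18 pairs of same-numbered arrays 12 deviated together (correlation over 0.1, range -0.246 to 0.679). All 3 pairs of early and late Dunn arrays did (0.227 to 0.679), and with the block that comparison called 0 members as well (4 at an unadjusted p under 0.05, limma). In each other pair of groups at least 1 of the 3 did not, and those were not taken as paired.

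Directions that turned were of small differences. With quantile normalization Dvl2 in Dunn passage was -0.14. With normexp Dvl2 (-0.52) and Axin2 (-0.88) in Dunn passage, Nkd1 in LM8 passage (0.06) and Axin2 pooled (-0.85) turned. Without scaling Tcf7 (0.53), Tcf7l1 (0.58) and Nkd1 (0.42) in Dunn passage, Tcf7 (0.28), Vangl1 (0.03), Nkd1 (0.33), Tcf7l2 (0.21) and Apc2 (0.24) in LM8 passage and Tcf7l2 pooled (0.55) turned. With the floor Axin2 in Dunn passage was -0.04. With the mean over probes Axin2 (-0.31) and Nkd1 (0.03) in Dunn passage, Tcf7l2 in LM8 passage (0.20) and Axin2 pooled (-0.44) turned. With array weights Tcf7l1 in Dunn (0.49) and Tcf7l2 (0.19) and Apc2 (0.02) in LM8 passage turned, and without slide 1 Tcf7l1 in Dunn (0.16) and Tcf7 (0.04), Nkd1 (0.11) and Apc2 (0.15) in LM8 passage. Leaving out single arrays gave ranges across 0 in Dunn passage for Tcf7l1 (-0.98 to 0.19), Dvl2 (-0.24 to 0.85) and Axin2 (0 to 0.94), and in LM8 passage for Tcf7 (-0.23 to 0), Nkd1 (-0.14 to 0.09), Tcf7l2 (-0.52 to 0.04), Apc2 (-0.28 to 0.12), Nkd2 (-0.01 to 0.27) and Axin2 (-0.13 to 0.40). None of these values was called as reported.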
